A study of Mus musculus with 4 samples.

Results

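The heat shock proteins and the DnaJ proteins are the main families of molecular chaperones, the proteins that fold, hold and sort other proteins. The genes described here carry symbols of the form Hspa, Hspb, Hspd, Hspe or Hsph with a number, Hsp90aa1, Hsp90ab1 or Hsp90b1, or Dnaja, Dnajb or Dnajc with a number, with pseudogenes left out. In the annotation 70 symbols matched, and 69 of them were among the 41388 genes of the files. For Hspa14 no value was analysed here.

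RNA was measured in cells that carry EGFP, sorted from dorsal root ganglia (the ganglia of the spinal sensory neurons) of mice that report expression of the receptor gene Ret. All 4 libraries carry the stage P2 (postnatal day 2), the strain C57BL/6 and the same genotype, written Tg(Ret-EGFP)SJ/ in the labels, whereas the series text describes heterozygotes with EGFP knocked into the Ret locus. According to the labels, each library came from the pooled T11 to S1 ganglia of 1 animal, 40 ganglia for the female and 20 for each male. How 1 female gave 40 ganglia over the span that gave 20 in each male is not explained in them. By the description of its pool, each library belongs to 1 of 2 pairs: the P2 mouse pair, female A with male A, and the embryo pair, male B with male C. Values of a pair are given in that order throughout. Every library, of both pairs, cites a dissociation procedure for ganglia of day E18.5. What the word embryo marks (age, preparation or a wording) is not stated in the labels, so no time is attached to the difference between the pairs. The series title sets male against female cells, and the only female is in the P2 mouse pair. The labels name 4 separate animals, and the p-values below measure the spread between so few of them.

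Chaperones of the HSP70 family bind short hydrophobic stretches of unfolded protein in a cycle of ATP binding and hydrolysis. DnaJ proteins (HSP40) deliver the clients and start hydrolysis through their J domain, HSP110 proteins exchange the nucleotide, and HSP90 finishes the folding of kinases, receptors and other clients. Small heat shock proteins hold unfolded protein without ATP, and the mitochondrial chaperonin encloses it in a barrel. Separate members serve the endoplasmic reticulum (ER) and the mitochondrion. Stress induces part of the family through heat shock factor HSF1 in the cytosol and through the unfolded protein response in the ER, while other members are made all the time. In sensory neurons, whose axons are very long, chaperones also serve vesicle recycling and transport, and HSPB1 is known as a protein induced by axon injury.

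Promoter sequences are shown for the members that hold one of these stress elements, because the stress response is what much of the family is named for. RefSeq promoters (GRCm38.p6, 250 bases before to 50 bases after an annotated start, 300 bases in all) were matched by symbol for 56 of the 69 genes and read on both strands. The ER stress response element was searched as CCAAT and CCACG with 9 bases of any kind between them. It was found in 3 of these 56 members and in 0.137% of all 27025 genes with a promoter. The promoters of the 3 members follow. They are printed 5′ to 3′ on the gene's strand, with the element, in either orientation, in capitals: Hspa5 (chr2:34771840-34772139, plus strand), Hsp90b1 (chr10:86705395-86705694, minus strand, with 2 matches) and Dnajc3 (chr14:118937682-118937981, plus strand).
Hspa5: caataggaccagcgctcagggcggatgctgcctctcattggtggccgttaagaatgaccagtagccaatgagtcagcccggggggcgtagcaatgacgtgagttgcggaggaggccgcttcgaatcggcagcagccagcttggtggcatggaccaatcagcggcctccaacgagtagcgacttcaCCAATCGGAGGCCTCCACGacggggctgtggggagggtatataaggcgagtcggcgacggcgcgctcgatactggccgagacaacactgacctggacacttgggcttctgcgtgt
Hsp90b1: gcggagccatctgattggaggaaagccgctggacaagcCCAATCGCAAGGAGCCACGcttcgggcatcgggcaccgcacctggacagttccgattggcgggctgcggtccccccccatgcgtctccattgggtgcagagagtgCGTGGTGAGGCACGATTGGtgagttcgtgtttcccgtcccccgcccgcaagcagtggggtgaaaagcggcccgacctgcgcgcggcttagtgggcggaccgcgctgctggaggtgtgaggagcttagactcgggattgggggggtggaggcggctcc
Dnajc3: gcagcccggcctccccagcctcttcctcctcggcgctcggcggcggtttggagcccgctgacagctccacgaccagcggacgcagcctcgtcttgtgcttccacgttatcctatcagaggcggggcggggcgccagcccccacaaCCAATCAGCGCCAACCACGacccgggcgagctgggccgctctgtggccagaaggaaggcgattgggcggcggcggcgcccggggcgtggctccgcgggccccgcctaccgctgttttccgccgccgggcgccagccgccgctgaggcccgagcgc
Hspa5 encodes BiP, the HSP70 of the ER, Hsp90b1 encodes GRP94, the HSP90 of the ER, and Dnajc3 encodes P58IPK, a DnaJ protein of the ER lumen. All 3 were higher in the P2 mouse pair by the test described below. Over all genes with this element, these 3 members included, 19 were tested, of which 6 were higher and 4 lower.

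A heat shock element of 3 units was searched as GAA, TTC and GAA, or TTC, GAA and TTC, with 2 bases of any kind between the units. It was found in 4 of the 56 members (Dnajb6, Hspd1, Hspe1 and Hsph1) and in 0.662% of all genes with a promoter. The printed examples are Hspe1 (chr1:55087898-55088197, plus strand) and Hsph1 (chr5:149636287-149636586, minus strand), with the matched bases in capitals. The marked stretch of Hspe1 is made of 2 overlapping matches. In the printed window of Hsph1 the match begins 36 bases after the annotated start. Hspe1 and Hspd1 start head to head, and the window of Hspd1 holds the same stretch on the opposite strand.
Hspe1: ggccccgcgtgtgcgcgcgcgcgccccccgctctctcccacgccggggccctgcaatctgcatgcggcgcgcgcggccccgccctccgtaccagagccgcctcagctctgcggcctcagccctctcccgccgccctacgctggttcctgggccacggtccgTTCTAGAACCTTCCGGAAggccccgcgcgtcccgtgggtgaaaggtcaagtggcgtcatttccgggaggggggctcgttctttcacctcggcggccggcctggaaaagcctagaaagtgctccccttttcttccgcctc
Hsph1: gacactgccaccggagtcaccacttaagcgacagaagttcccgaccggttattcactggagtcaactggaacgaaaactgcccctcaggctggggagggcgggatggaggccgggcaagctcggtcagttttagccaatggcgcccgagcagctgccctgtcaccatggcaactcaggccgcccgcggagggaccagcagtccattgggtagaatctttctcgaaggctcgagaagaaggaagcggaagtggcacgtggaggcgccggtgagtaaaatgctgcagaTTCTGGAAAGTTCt
Of these 4 members Hsph1 was lower in the P2 mouse pair and the other 3 were not called. With offsets for GC content and length, described below, Dnajb6 was called higher (log2 fold change 0.90, adjusted p = 0.0336) and Hspe1 lower (-0.39, adjusted p = 0.0455). The shorter element of 2 units (GAA and TTC in either order, with the same spacing) lies within the longer one. It was present in 15 of the 56 members and in 17.0% of all genes with a promoter. Of the 15, 3 were higher, 2 lower, 9 not called and 1 not tested. Of 1562 genes tested that hold it, 340 were higher and 338 lower. A match describes the letters in this window and is not a measured binding site.

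Gene counts summed to between 17388493 (male A) and 28066448 (female A) per library, and the 69 genes took between 0.927% and 0.988% of them. Across all genes, libraries of 1 pair were closer to each other than libraries of different pairs (correlation of log2 CPM 0.991 and 0.986 within the pairs and 0.933 to 0.943 between them, over 13490 genes, which are not independent). Markers of neurons, Tubb3 at 1849 to 5515 CPM (counts scaled to the library total) among them, were present in every library, and so were markers of Schwann cells and fibroblasts. Male B stood apart in single genes. Of 3873 genes with a mean of at least 50 CPM, 40 were more than 2-fold lower in male B than in each other library, against 0 or 1 such genes for the other libraries. The mitochondrial HSP70 gene Hspa9 was the only member among the 40. Counts carried no molecular identifiers, so a floor of 3 counts (0.107 to 0.173 CPM) covers counting error only. In bulk RNA, fewer cells of a type and less RNA per cell cannot be told apart.

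Levels were compared between genes in RPKM, the CPM per kilobase of exon. The range was wide: 12 members had a mean of at least 50 RPKM and 13 a mean under 1 RPKM. Hsp90ab1, the constitutive cytosolic HSP90 (ENSMUSG00000023944, chr17:45567775-45573271, GRCm38), alone made up 43.6% of the summed mean RPKM of all 69. Together with Hspa8 and Hspa5 the share was 56.9%, and the 12 most abundant members made up 80.0%.

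**Figure D1:**
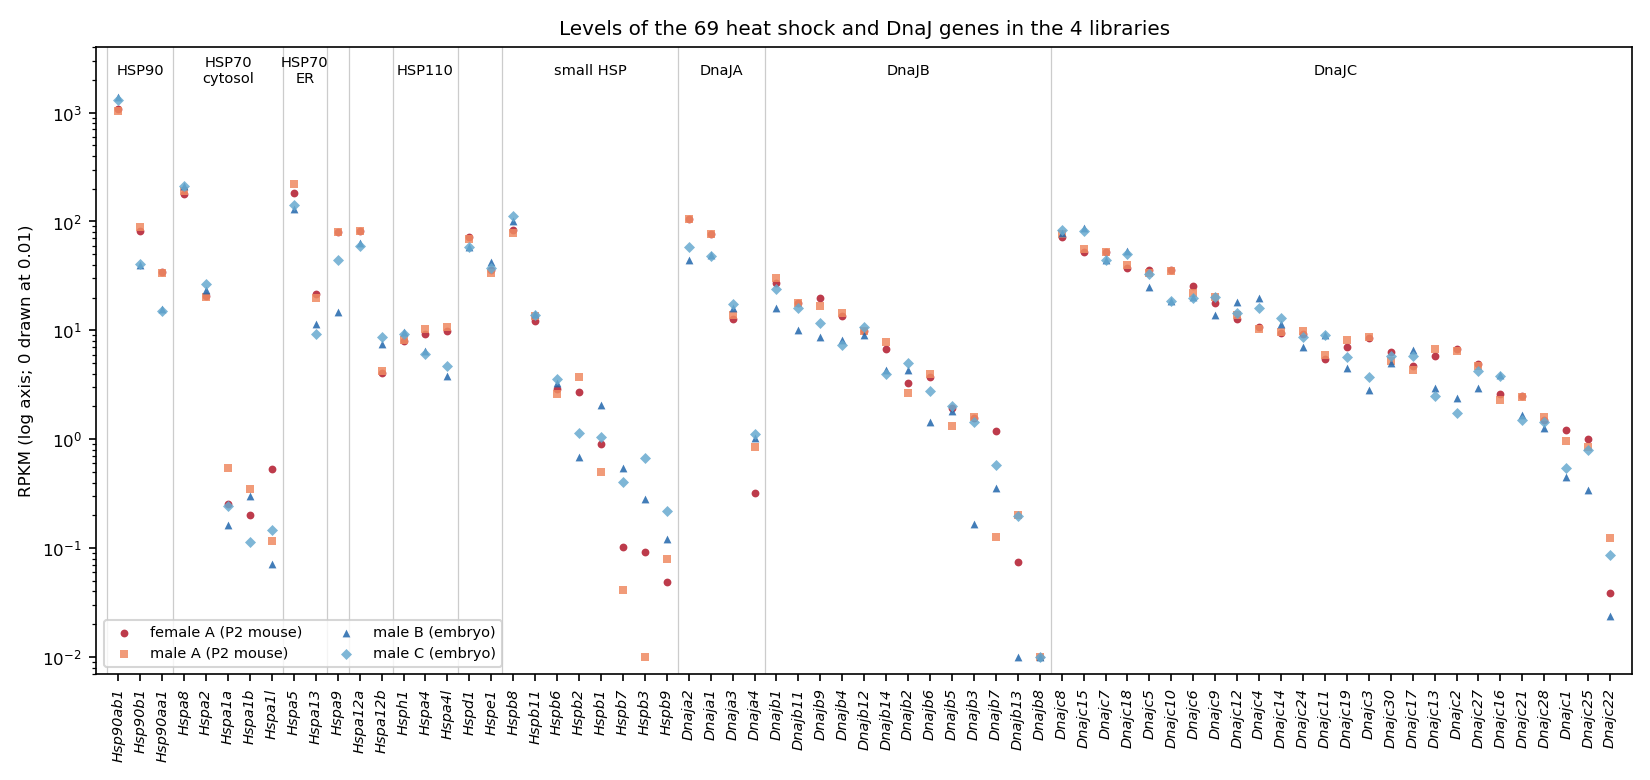
Level of each of the 69 genes in RPKM (log axis, 0 drawn at 0.01) in the 4 libraries, ordered by class and then by mean level; the unnamed columns hold Hspa9, the Hspa12 genes and the mitochondrial chaperonin. Red symbols are the P2 mouse pair and blue symbols the embryo pair. Hsp90ab1 lies at 1024 RPKM or more in every library, and Dnajb8 has no count in any.

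The first comparison asked whether the chaperone genes differed between the P2 mouse pair and the embryo pair. Chaperone calls were frequent but so were calls among all genes. edgeR's quasi-likelihood test called 19 members higher in the P2 mouse pair and 15 lower, and left 29 of the 63 tested uncalled. The background was of the same kind: 42.3% of all 15568 genes tested were called, 22.3% higher and 20.0% lower, against 30.2% and 23.8% of the members. The median log2 fold change was 0.17 over the members and 0.02 over all genes. The 6 members that were too low to test are Hspb3, Hspa1l, Dnajb13, Hspb9, Dnajc22 and Dnajb8. Over all 69 members the CPM of both P2 mouse libraries lay above both embryo libraries for 34 genes and below them for 25, and the pairs overlapped for 10. Of the 63 tested these were 34 above and 23 below. Among all genes tested, the pairs did not overlap for 73.3%, 42.5% with the P2 mouse pair above and 30.8% with it below.

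The calls went in both directions in 7 of the 11 classes. Without male B, 18 members were higher and 16 lower (beside 21.4% and 20.0% of all genes in that fit), and without male C 26 and 17 (beside 22.1% and 20.1%). Leaving out female A gave 14 and 9 (beside 13.6% and 11.3%), and leaving out male A 13 and 6 (beside 11.8% and 10.3%). In each of these fits the single library left in 1 arm was assumed to vary like the others. With sex as a term they were 14 and 6, beside 13.3% and 10.4% of all genes, and 20 of the 34 calls held. Among the genes described below, this fit lost the calls of Hspa8, Hspa2, Hspa9, Hspa12a, Hsph1, Hspb2, Hspb7, Dnaja3, Dnajb2, Dnajb9, Dnajc1, Dnajc4, Dnajc14 and Dnajc18.

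**Figure D2:**
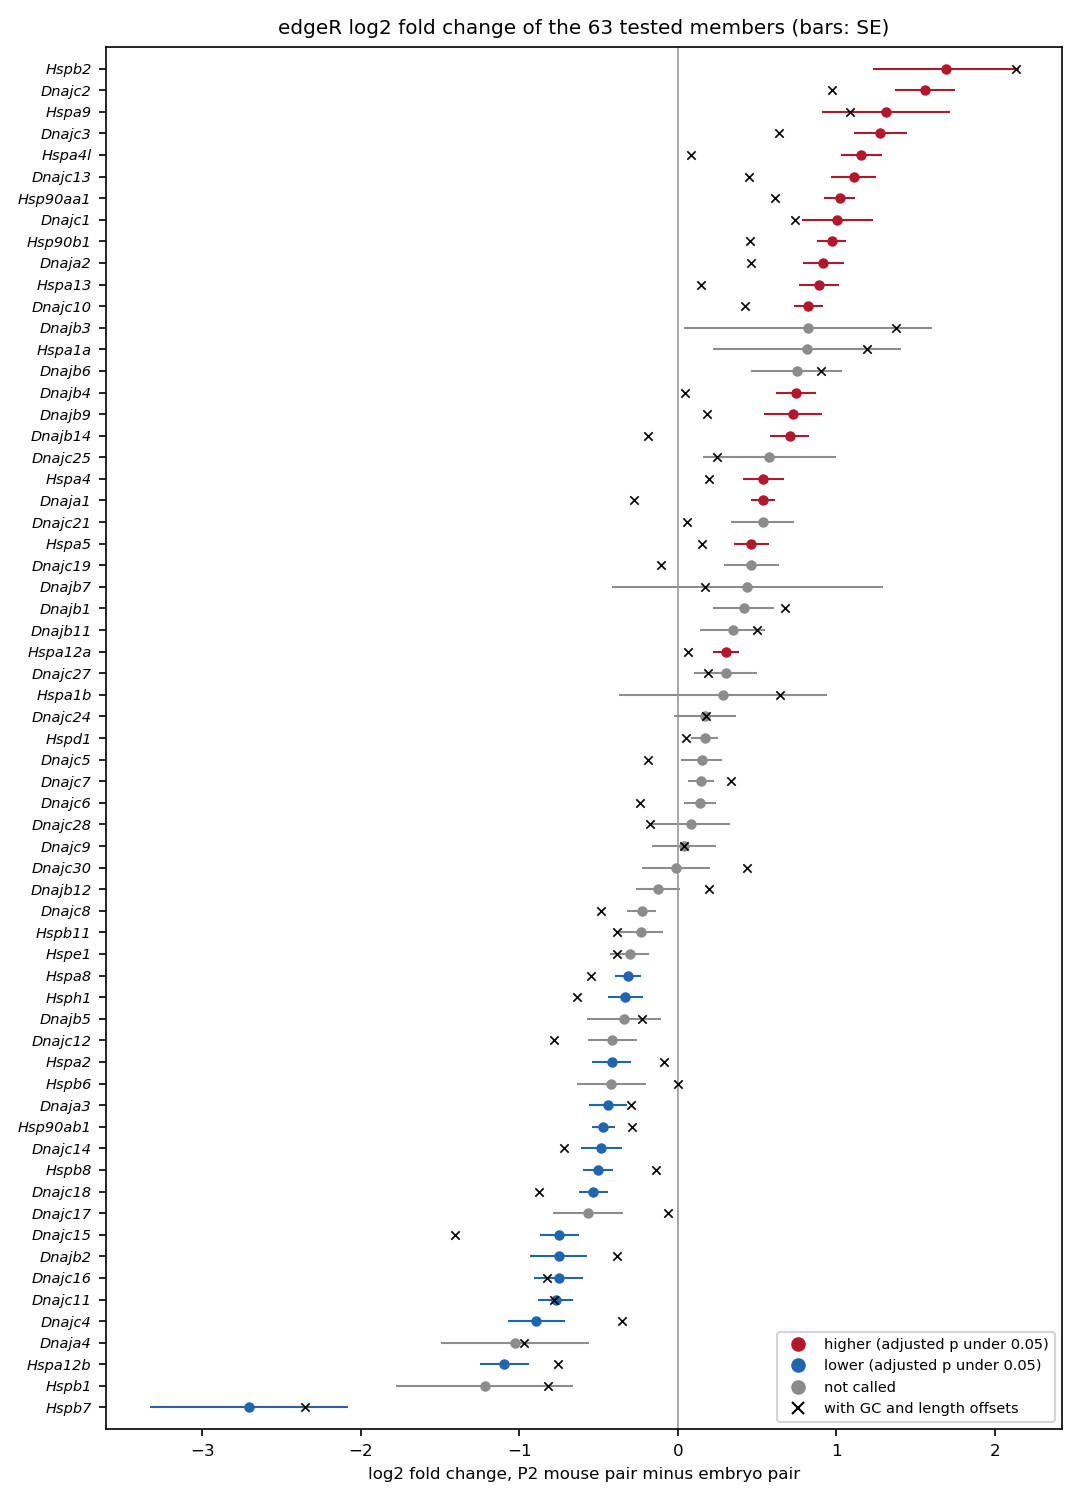
Fold change of each of the 63 tested members (log2, P2 mouse pair minus embryo pair, horizontal axis) with its SE, from edgeR. Red is higher, blue lower and grey not called at an adjusted p of 0.05, and the crosses are the values with offsets for GC content and transcript length. The crosses of most red genes lie nearer to 0 than their points, and those of Dnaja1 and Dnajb14 lie on the other side of 0.

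The 3 HSP90 genes all differed, and not in the same direction. Hsp90ab1 stood at 1081 and 1024 RPKM in the P2 mouse pair and 1380.2 and 1314 in the embryo pair. It was 1.39-fold higher in the embryo pair (log2 fold change -0.47, SE 0.07, adjusted p = 0.00189). Hsp90aa1, the stress-inducible cytosolic form (chr12:110690605-110702728), stood at 34.1 and 33.8 RPKM in the P2 mouse pair and 15.7 and 15.2 in the embryo pair. Here the P2 mouse pair was 2.03-fold higher (log2 fold change 1.02, SE 0.10, adjusted p = 0.000272). The RPKM ratio of Hsp90ab1 to Hsp90aa1 was therefore 31.7 and 30.3 in the P2 mouse pair and 87.7 and 86.5 in the embryo pair. Within each pair the 2 libraries were close, and the pairs did not overlap for either gene.

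Hsp90b1, which encodes GRP94 (chr10:86690209-86705509), was at 81.8 and 88.9 RPKM in the P2 mouse pair and 39.6 and 40.9 in the embryo pair. The P2 mouse pair was 1.96-fold higher (log2 fold change 0.97, SE 0.09, adjusted p = 0.000255). With offsets for GC content and length the log2 fold changes were -0.29 for Hsp90ab1, 0.61 for Hsp90aa1 and 0.45 for Hsp90b1, all 3 still called, and the calls also held with sex as a term and with each library left out in turn. With the offsets and sex as a term together, Hsp90aa1 was called (adjusted p = 0.042) and Hsp90ab1 (adjusted p = 0.147) and Hsp90b1 (adjusted p = 0.0562) were not. Hsp90aa1 shares 47.5% of its 50-base words with other genes, mostly with the pseudogene Gm12346, so its counts are uncertain where reads could match both. Of the exon bases of Hsp90b1, 15.7% overlap other annotated genes.

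Among the HSP70 genes of the cytosol, Hspa8 was by far the most abundant. It encodes HSC70, the mainly constitutive form that also strips clathrin from vesicles. Its level was 178.7 and 191.4 RPKM in the P2 mouse pair and 213.4 and 211.6 in the embryo pair, which is 1.24-fold higher in the embryo pair (log2 fold change -0.31, SE 0.08, adjusted p = 0.0173). The call was lost when either female A (adjusted p = 0.15) or male A (adjusted p = 0.0609) was left out and with sex as a term (adjusted p = 0.16). Hspa8 shares 39.4% of its words with other genes, chiefly Gm15459, which had 0 counts in every library. Hspa2, a form best known from the testis, ranged from 20.1 to 26.9 RPKM and was lower in the P2 mouse pair (log2 fold change -0.42, adjusted p = 0.026), a call lost with the offsets (-0.09).

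The classical heat-inducible HSP70 genes were near the bottom of the range. Hspa1a had 21, 28, 11 and 18 counts in female A, male A, male B and male C, or 0.25, 0.54, 0.16 and 0.24 RPKM. Hspa1b had 16, 17, 19 and 8 counts in the same order, or 0.20, 0.35, 0.30 and 0.11 RPKM. Neither was called between the pairs, with log2 fold changes of 0.81 (SE 0.59, adjusted p = 0.31) and 0.28 (SE 0.66, adjusted p = 0.76). The value for Hspa1b was -0.13 without male A and -0.30 without male C. The 2 genes share 66.3% and 62.3% of their words with other genes, mainly each other, and can hardly be told apart by short reads. The level of Hspa8 was between 353 and 1304 times that of Hspa1a in RPKM.

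Among the HSP70 genes of the ER, Hspa5 (chr2:34771970-34776531) was the most abundant and the third of all members. BiP, its product, binds nascent chains and holds the sensors of the unfolded protein response inactive. Levels were 183.5 and 220.4 RPKM in the P2 mouse pair and 129.0 and 141.8 in the embryo pair. The P2 mouse pair was 1.38-fold higher (log2 fold change 0.46, SE 0.11, adjusted p = 0.0128), but with GC and length offsets the value was 0.15 (adjusted p = 0.28), and the call was also lost without male A. Hspa13, a microsomal HSP70 with no peptide-binding domain, stood at 21.4 and 19.8 RPKM in the P2 mouse pair and 11.4 and 9.17 in the embryo pair. It was 1.86-fold higher in the P2 mouse pair (log2 fold change 0.89, SE 0.13, adjusted p = 0.00128), and with the offsets the value was 0.14 and not called.

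Hspa9, which encodes mortalin, the motor of mitochondrial protein import, showed the widest spread of the abundant members. It was at 79.4 and 79.3 RPKM in the P2 mouse pair and 14.9 and 44.1 in the embryo pair. The P2 mouse libraries were alike, while male B was at 0.337 of the level of male C. The log2 fold change was 1.31 (SE 0.41, adjusted p = 0.0336), with DESeq2 the adjusted p was 0.13, and with the offsets it was 0.0613. Without male B the value was 0.72 (adjusted p = 7.89e-05) and without male C 2.26 (adjusted p = 3.28e-07). The call was lost without female A (adjusted p = 0.12) and without male A (adjusted p = 0.14). The direction was the same in all of these fits, and the size depended on male B.

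The divergent HSPA12 genes, distant relatives of HSP70, went opposite ways. Hspa12a had 81.2 and 82.4 RPKM in the P2 mouse pair and 62.9 and 59.6 in the embryo pair (log2 fold change 0.30, SE 0.08, adjusted p = 0.0203). That call was lost with the offsets (0.06), with sex as a term, and without female A, male A or male C. Hspa12b, known from endothelial cells, had 4.05 and 4.20 RPKM in the P2 mouse pair and 7.53 and 8.74 in the embryo pair and was 2.14-fold higher in the embryo pair (log2 fold change -1.09, SE 0.15, adjusted p = 0.00118). Its value with the offsets was -0.76 and it was called in all fits with 1 library left out. Of 9 endothelial and mural markers tested, the endothelial genes Cdh5, Kdr, Tek, Emcn and Flt1 were higher in the P2 mouse pair (log2 fold changes of 1.76 to 3.43). That is the opposite direction to Hspa12b, but these genes were low, at most 4.17 CPM, and each was highest in female A. With sex as a term their calls were lost (values of 1.01 to 2.46), and with the offsets those of Kdr and Emcn were lost. The endothelial gene Pecam1 was not called (0.24). The smooth muscle gene Acta2 was lower (-1.57), a call also lost with sex as a term. All 10 endothelial and mural markers summed to 108 and 104 CPM in the P2 mouse pair and 101 and 93.2 in the embryo pair. Most of it came from the mural genes Rgs5 (58.4 to 71.4 CPM) and Pdgfrb (22.5 to 29.1 CPM). The part of vascular cells in the value of Hspa12b was not tested.

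The HSP110 genes encode nucleotide exchange factors of HSP70, and 2 of the 3 were higher in the P2 mouse pair. Hspa4l stood at 9.86 and 10.6 RPKM in the P2 mouse pair and 3.84 and 4.66 in the embryo pair, 2.23-fold higher in the P2 mouse pair (log2 fold change 1.16, SE 0.13, adjusted p = 0.000444). Modelling GC content and length moved it to 0.08 (adjusted p = 0.68). Hspa4 (6.03 to 10.3 RPKM) had a log2 fold change of 0.54 (adjusted p = 0.0124) and 0.20 with the offsets, not called. Hsph1, the heat-inducible member whose promoter is printed above, ranged from 8.01 to 9.59 RPKM and was lower in the P2 mouse pair by a small margin (log2 fold change -0.33, SE 0.11, adjusted p = 0.0434), a call lost when any library but male C was left out.

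The mitochondrial chaperonin genes did not pass the test, though Hspe1 was called lower with the offsets. Hspd1 (HSP60) stood at 72.1 and 69.6 RPKM in the P2 mouse pair and 58.0 and 58.5 in the embryo pair (log2 fold change 0.17, SE 0.09, adjusted p = 0.15). Its partner Hspe1 (HSP10) stood at 36.1 and 33.8 RPKM in the P2 mouse pair and 42.5 and 37.2 in the embryo pair (log2 fold change -0.30, SE 0.12, adjusted p = 0.0848). The 2 genes share 42.1% and 22.8% of their words with other genes, so both counts are uncertain.

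Small heat shock proteins were led by Hspb8, which works with BAG3 in the selective autophagy of misfolded protein. Hspb8 stood at 83.4 and 78.7 RPKM in the P2 mouse pair and 100.8 and 111.8 in the embryo pair. It was 1.42-fold higher in the embryo pair (log2 fold change -0.51, SE 0.09, adjusted p = 0.0042). With the offsets the value was -0.14 (adjusted p = 0.25), and the call was also lost without male A. Hspb11, which encodes IFT25 of the ciliary transport complex, ranged from 12.2 to 14.2 RPKM and was not called. Hspb1 (HSP27) was low, at 0.90, 0.50, 2.05 and 1.05 RPKM from 26, 9, 48 and 27 counts, and was not called (log2 fold change -1.22, SE 0.56, adjusted p = 0.12). Hspb1 shares 50.1% of its words, mostly with Hsp25-ps1. The muscle-associated genes Hspb2 (13 to 64 counts, log2 fold change 1.69, adjusted p = 0.0207) and Hspb7 (2 to 34 counts, -2.71, adjusted p = 0.0104) were called on few counts and in opposite directions. Hspb2 shares 24.4% of its words with Cryab, which had 4683 and 4099 counts in the P2 mouse pair and 1663 and 1966 in the embryo pair, and without male B no small heat shock protein was called higher. Hspb3 and Hspb9 were not tested.

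In DnaJ class A, the members closest to the bacterial DnaJ, Dnaja2 and Dnaja1 were abundant. Dnaja2 had 104.3 and 104.4 RPKM in the P2 mouse pair and 44.4 and 57.7 in the embryo pair, 1.89-fold higher in the P2 mouse pair (log2 fold change 0.92, SE 0.13, adjusted p = 0.00115; 0.46 with the offsets, still called). Dnaja1 had 76.1 and 76.2 RPKM in the P2 mouse pair and 48.8 and 48.3 in the embryo pair. Its log2 fold change was 0.54 (SE 0.08, adjusted p = 0.00135), and with the offsets for GC content and length it was -0.28 and called in the opposite direction (adjusted p = 0.0265). The deposited RPKM of Dnaja1 do not overlap between the pairs, so its direction depends on whether base composition and length are modelled. Dnaja3, the mitochondrial member Tid1, was lower in the P2 mouse pair (12.8 to 17.3 RPKM, log2 fold change -0.44, adjusted p = 0.019), a call lost with the offsets, and Dnaja4 was not called.

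Of DnaJ class B, 11 of 13 genes were tested, 3 were higher (27.3%, beside 22.3% of all genes) and 1 lower (9.1%, beside 20.0%). Dnajb1, the heat-inducible partner of HSP70 and the most abundant of the class, stood at 27.4 and 30.2 RPKM in the P2 mouse pair and 15.9 and 24.0 in the embryo pair. It was not called (log2 fold change 0.42, SE 0.19, adjusted p = 0.12), but was called with the offsets (0.68) and without male C (0.70). The genes called higher were Dnajb4 (7.36 to 14.5 RPKM, log2 fold change 0.75), and the ER genes Dnajb9 (ERdj4, 0.73) and Dnajb14 (0.71), and with the offsets none of these 3 calls held. Dnajb2, whose product sorts ubiquitinated proteins in neurons, had 3.27, 2.68, 4.32 and 4.96 RPKM and was lower in the P2 mouse pair (log2 fold change -0.75, SE 0.18, adjusted p = 0.0125). That call was lost with the offsets and without male A.

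DnaJ class C joins proteins that share the J domain and little else, and its 26 members ranged from 87.0 RPKM for Dnajc15 in male B to under 1. Dnajc8, linked to splicing, was the most abundant by mean RPKM and did not pass the test (72.4, 76.9, 78.2 and 83.4 RPKM, log2 fold change -0.23, SE 0.09, adjusted p = 0.0814). With the offsets it was called lower (-0.49). In all, 5 of the 25 tested were higher and 6 lower (20.0% and 24.0%), near the 22.3% and 20.0% of all genes.

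The largest rise among members with a mean of at least 5 CPM was that of Dnajc2, which encodes a J protein bound to ribosomes. It stood at 6.71 and 6.50 RPKM in the P2 mouse pair and 2.41 and 1.73 in the embryo pair, 2.95-fold higher in the P2 mouse pair (log2 fold change 1.56, SE 0.19, adjusted p = 0.000659). Dnajc13, the endosomal protein RME-8, was at 5.87, 6.81, 2.95 and 2.49 RPKM and 2.16-fold higher (log2 fold change 1.11, SE 0.14, adjusted p = 0.000831). Both calls held with the offsets, at 0.97 and 0.45. The other vesicle members, Dnajc5 (cysteine string protein of synaptic vesicles, 25.1 to 36.1 RPKM), Dnajc6 (neuronal auxilin, 19.8 to 25.7 RPKM) and Dnajc27, were not called.

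Of the ER members in this class, Dnajc3 had 8.60 and 8.75 RPKM in the P2 mouse pair and 2.86 and 3.75 in the embryo pair, 2.42-fold higher in the P2 mouse pair (log2 fold change 1.28, SE 0.17, adjusted p = 0.00082; 0.64 with the offsets, still called). Dnajc10, the disulfide reductase ERdj5, had 36.1, 34.8, 18.6 and 18.4 RPKM (log2 fold change 0.82, SE 0.09, adjusted p = 0.000408; 0.42 with the offsets, still called). Dnajc1, the ribosome-binding ERdj1, was low (0.45 to 1.21 RPKM) and higher in the P2 mouse pair (log2 fold change 1.00, SE 0.22, adjusted p = 0.00912), a call lost without female A. In the other direction, Dnajc18 had 37.6, 40.2, 53.8 and 50.3 RPKM (log2 fold change -0.53, SE 0.09, adjusted p = 0.00282). Dnajc14 (9.38 to 13.0 RPKM, log2 fold change -0.48) and Dnajc16 (2.31 to 3.90 RPKM, log2 fold change -0.75) were lower too. The calls of these 3 held with the offsets. Dnajc14 lost its call without female A or male A and Dnajc16 without male A. Dnajc14 overlaps Ormdl2 over 36.9% of its exon bases, so reads may be divided between them.

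Of the mitochondrial DnaJ genes of class C, 3 were higher in the embryo pair. Dnajc15, a protein of the inner membrane, restrains respiratory complex I. It had 52.8 and 55.7 RPKM in the P2 mouse pair and 87.0 and 81.5 in the embryo pair. It was 1.68-fold higher in the embryo pair (log2 fold change -0.75, SE 0.12, adjusted p = 0.00235). With the offsets the value was -1.41. The RPKM of Dnajc15 rest on 648 exon bases, whereas its GENCODE transcripts hold 6551 different 50-base words. The offsets used the longest GENCODE transcript. Its value with the offsets and its rank by RPKM (8, against 31 by CPM) are therefore uncertain. Dnajc11, associated with the cristae-organizing complex, had 5.47, 6.00, 9.02 and 9.06 RPKM. It was 1.71-fold higher in the embryo pair (log2 fold change -0.77, SE 0.11, adjusted p = 0.00118, and -0.78 with the offsets). Dnajc4 had 10.7, 10.3, 19.8 and 16.2 RPKM (log2 fold change -0.89, SE 0.18, adjusted p = 0.00599), a call lost with the offsets (-0.35) and without female A or male A. Dnajc19 of the import motor, Dnajc28 and Dnajc30 were not called.

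Grouped by compartment, most of the tested ER members were higher in the P2 mouse pair. Of the 14, 8 were higher (57.1%, beside 22.3% of all genes) and 3 lower (21.4%, beside 20.0%), with a median log2 fold change of 0.64. Without male B the counts were also 8 and 3, and without male A they were 6 and 1. With GC and length offsets 4 were higher (28.6%, beside 12.4% of all genes) and 3 lower. With offsets and sex as a term together none was higher and 1 was lower, beside 5.01% and 8.29% of all genes. Of the 10 mitochondrial members 1 (Hspa9) was higher (10.0%, beside 22.3% of all genes). The 4 lower (40.0%, beside 20.0%) were Dnajc15, Dnajc11, Dnajc4 and Dnaja3, and the median was -0.16. With the offsets 0 were higher and 3 lower (0.0% and 30.0%, beside 12.4% and 20.9% of all genes). With sex as a term 0 were higher and 2 lower (0.0% and 20.0%, beside 13.3% and 10.4%). The 35 tested members of the cytosol, nucleus and other sites had 9 higher and 8 lower (25.7% and 22.9%). Of the 4 vesicle members 1 (Dnajc13) was higher (25.0%). No test compared the groups with each other or with the other genes.

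Other genes of the same pathways were read from lists. Of 23 further ER chaperone and unfolded protein response genes, 8 were higher and 4 lower (median log2 fold change 0.31; 7 and 3 with the offsets). Canx (calnexin, 0.42), Atf4 (0.31) and Serpinh1 (a collagen chaperone, 0.53) were the most abundant called higher, and Pdia6 (-0.69), Calr (calreticulin, -0.61) and Sil1 (the exchange factor of BiP, -0.74) the most abundant called lower. With the offsets Canx turned to -0.20 and, like Sil1, was no longer called. The sensor gene Ern1 was higher (1.07; adjusted p = 0.0518 with the offsets) and Ddit3, the CHOP gene induced by ER stress, was lower (-0.73), while Xbp1 and Herpud1 did not pass the test. The last 4 were named after their values were seen. The genes of the ER response therefore did not all share the direction of Hspa5, Hsp90b1 and Dnajc3.

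Among co-chaperones of HSP70 and HSP90, of which 24 were tested, 12 were lower in the P2 mouse pair, as Hsp90ab1 and Hspa8 were, and 2 higher, with a median log2 fold change of -0.30. With the offsets 13 were lower and 1 higher, and without male B 14 were lower and 2 higher. St13 (HIP, which holds HSP70 on its client, -0.31), Ptges3 (p23 of the HSP90 complex, -0.75) and Stip1 (HOP, which links HSP70 to HSP90, -0.82) were the most abundant lower genes. Cdc37l1 (0.82) and Bag4 (0.57) were the genes called higher. With the offsets neither was called (0.07 and 0.02), and the gene called higher was Bag5 (0.41), named after its values were seen. The cytosolic chaperonin TRiC with prefoldin had 6 of 14 lower, led by Cct5 (-0.64), Cct7 (-0.78) and Cct3 (-0.46), and 2 higher (Vbp1 at 0.54 and Cct4 at 0.39). With the offsets 5 were lower and none higher. Among 11 other genes of mitochondrial folding and import, 3 were higher (Tomm70a, Tomm20 and Clpx) and 4 lower (Grpel1, Trap1 and Clpp the most abundant). With the offsets 2 were higher and 2 lower, Tomm70a turned to -0.18 and, like Clpp, was no longer called.

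**Figure D3:**
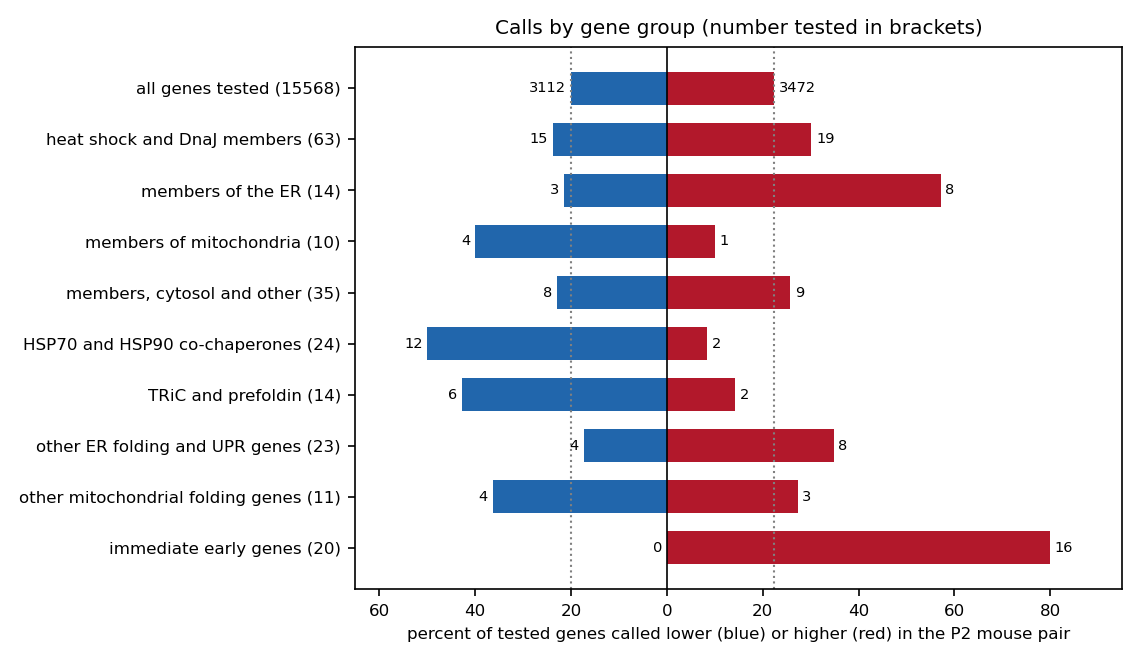
Percent of the tested genes of each group that were called lower (blue, left) or higher (red, right) in the P2 mouse pair by edgeR; the number tested is in brackets and the number called beside each bar. The dotted lines mark the 22.3% higher and 20.0% lower of all genes. The bar of ER members reaches 57.1% higher, and 12 of 24 co-chaperone genes are lower.

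The transcription factor genes Hsf1 and Hsf2 of the heat shock response were not called between the pairs, and Hsf2 turned to a lower call with the offsets. Hsf1, the main factor of the response, had 13.2 and 13.7 CPM in the P2 mouse pair and 10.0 and 20.0 in the embryo pair (log2 fold change -0.27, SE 0.31, adjusted p = 0.51). Hsf2 had 78.3, 71.2, 57.9 and 69.8 CPM (0.11, adjusted p = 0.51; -0.84 with the offsets, adjusted p = 0.00382). Hsbp1, a small binding partner of HSF1, was lower in the P2 mouse pair (-0.42, adjusted p = 0.00467). A list of 13 members that stress can induce also holds the mainly constitutive Hspa8 and the ER gene Hspa5. Of these 13, 4 were higher (Hsp90aa1, Hspa5, Dnaja1 and Dnajb4; 30.8%, beside 22.3% of all genes) and 2 lower (Hspa8 and Hsph1; 15.4%, beside 20.0%). With the offsets 2 were higher and 4 lower (15.4% and 30.8%, beside 12.4% and 20.9% of all genes). With sex as a term 4 were higher and none lower (30.8% and 0.0%, beside 13.3% and 10.4%).

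Immediate early genes, which are switched on within minutes of stimulation or dissociation of cells, were mostly higher in the P2 mouse pair. Of 20 tested, 16 were higher and none lower, with a median log2 fold change of 1.51. Fos stood at 492 and 694 CPM in the P2 mouse pair against 142.0 and 220.3 in the embryo pair, Nr4a1 at 143 and 180.0 against 18.8 and 35.4, and Klf6 at 261 and 343 against 107 and 118. The part of cell handling in the chaperone values was not tested.

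**Figure D4:**
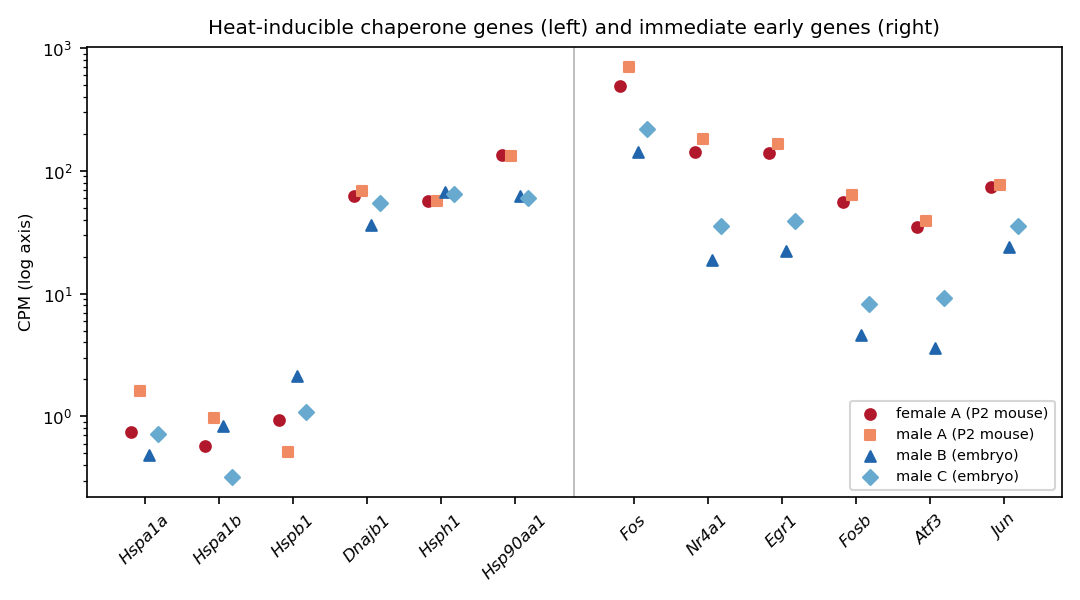
Level in CPM (log axis) of 6 heat-inducible chaperone genes (left of the line) and 6 immediate early genes (right) in the 4 libraries. The immediate early genes are higher in both P2 mouse libraries than in both embryo libraries, whereas among the chaperone genes shown only Hsp90aa1 is separated in this direction by more than 2-fold.

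Markers of other cells moved with the pairs. The 13 Schwann cell markers summed to 5236 CPM in female A and 8251 in male A, against 3074 in male B and 3120 in male C, and 12 of 13 were called higher in the P2 mouse pair. The 10 fibroblast markers summed to 1570 and 1714 CPM against 372 and 387 CPM, with 8 called higher and 1 lower. The 8 satellite glia markers summed to 966 and 1005 CPM against 544 and 911 CPM, but went both ways. Of these, 4 were called higher and 2 lower (Fabp7 at -1.30 and Glul at -0.59), and with the offsets 2 were higher and 2 lower. The 12 markers of neurons summed to 15375 and 14823 CPM against 22362 and 20606 CPM, with 8 lower and 2 higher. The direction of the neuron markers was shared by Hsp90ab1, Hspa8, Hspb8 and most of the called co-chaperones, and that of the Schwann cell and fibroblast markers by Hsp90b1, Hspa5, Dnajc3 and Serpinh1. The part of cell makeup in these results was not tested.

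Base composition moved with the calls as well. The members called higher had a median GC content of 43.2% in their longest transcript, those called lower 52.1% and those not called 49.7%. Across the 63 tested members the rank correlation of GC content and log2 fold change was -0.52, and across 15474 genes it was -0.44. Genes of 1 library share its amplification and depth, so these values are a description. When both GC content and transcript length were modelled as offsets in each library, 12 members were higher and 14 lower (beside 12.4% and 20.9% of all genes, 33.3% in all), and 19 of the 34 calls held in the same direction. The calls that held include those of Hsp90aa1, Hsp90b1, Dnaja2, Dnajc2, Dnajc3, Dnajc10 and Dnajc13 (higher) and Hsp90ab1, Hspa8, Hspa12b, Dnajc11 and Dnajc15 (lower).

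**Figure D5:**
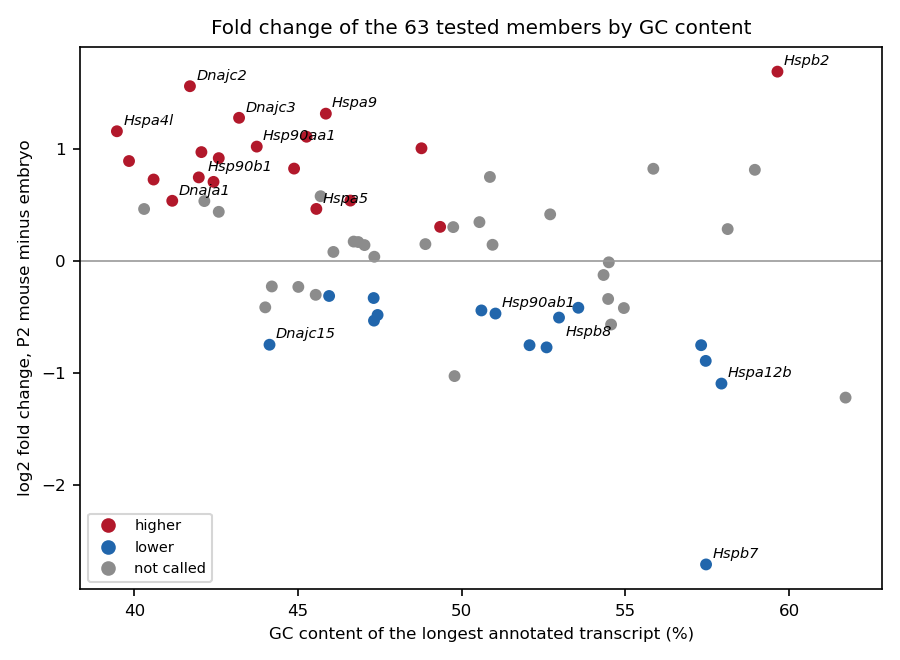
Fold change of the 63 tested members (log2, P2 mouse pair minus embryo pair, vertical axis) against the GC content of the longest annotated transcript in percent. Red is higher, blue lower and grey not called. Red points gather at low GC content (median 43.2%) and blue points at higher GC content (median 52.1%), with Hspb2 as a red point far to the right.

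The second comparison set the female library against the 3 males. No member was called, and edgeR called 0 genes of 16708 (0.00%), and 129 genes and 2 members had an unadjusted p under 0.05. Of the members' adjusted p-values the smallest was 0.95. DESeq2 called 0 members and 5 genes. The spread of the 3 males holds the difference between the pairs. With the pool description as a term, which sets female A against male A, 0 members and 4 genes (0.0239%) were called. With 1 female library, a lack of calls is no evidence of equal levels.

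Side by side, female A and male A were close in the chaperone genes. Over the 54 members with a mean of at least 5 CPM, the CPM ratio of female A to male A ran from 0.833 for Hspa5 to 1.47 for Dnajb5, with a median size of 0.10 on the log2 scale. Between male B and male C the ratio ran from 0.337 for Hspa9 to 1.39 for Dnajc2, with a median size of 0.17. Between libraries of different pairs the median size was 0.42 to 0.62. All genes were near these values. Over 10419 genes with the same mean and a count in every library, the median sizes were 0.13, 0.16 and 0.50 to 0.53 in the same order. Of the 54 members, none differed by more than 2-fold between female A and male A. Between male B and male C 1 (Hspa9) did, and between libraries of different pairs 8 to 10 did. Of the 10419 genes, 0.259%, 2.36% and 18.4% to 21.6% did in the same order. Members below that mean could differ more, among them Dnaja4 (1.14 CPM in female A and 3.05 in male A) and Hspa1l (1.32 and 0.29 CPM).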

How the data were processed

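RNA sequencing of 4 libraries was deposited as 1 table per library. The deposited counts are whole reads per Ensembl gene. The submitters' processing notes name featureCounts 1.4.5 of Subread and the build GRCm38.p2. The deposited CPM values equal each count scaled to the library's total, and the deposited RPKM values equal the CPM per kilobase of exon, as recomputed here. Low-input cDNA was made from 10 ng of RNA with a SMARTer kit, followed by 12 PCR cycles, per the labels' protocols. Aligner, annotation release, strandedness and multi-match handling: not given in the sources used here. Amplification can favour transcripts by GC content and length, which is why offsets were tried.

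Symbols, transcripts and GC content came from GENCODE M21 (GRCm38), which named 40254 of the 41388 genes. Library totals were 28066448 and 17388493 counts in the P2 mouse pair (female A, male A) and 22668371 and 24901520 in the embryo pair (male B, male C). The pairs and the sexes were compared on all genes with edgeR 4.0.16 under R 4.3.3, using its quasi-likelihood F test (TMM scaling, filterByExpr with a minimum count of 10 and a minimum total of 15), with Benjamini-Hochberg adjustment over all genes tested and a threshold of 0.05. The SE is the size of the log2 fold change over the square root of F, and rests on a spread moderated across genes. The fits of all 4 libraries have 2 residual degrees of freedom, and those with sex or pool description as an added term or with a library left out have 1. Alternatives were other scaling and filters, DESeq2 1.42.0, limma-voom (limma 3.58.1), sex or pool description as a term, each library left out, and offsets for GC content and transcript length from mgcv 1.9.3. The counts of genes by compartment and list without male B were added after the data were seen. The tests were checked on simulated counts with 1 spread for all genes (coefficient of variation 0.19 beyond counting error) and 50 changed genes per size. In this setting the pair comparison recovered 2% of 1.5-fold, 44% of 2-fold, 88% of 3-fold and 98% of 4-fold changes. A lack of a call therefore says little about small differences. The data differed from the simulation, which changed 50 of 15568 genes per size. In the data 42.3% of genes were called, and the median coefficient of variation was 0.163. The shares do not give the recovery in the data, where Hspa8 (1.24-fold) and Hsp90ab1 (1.39-fold) were called. For the sex comparison recovery was equally low at 1.5-fold and lower at each larger size.

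The members and lists were chosen with earlier results of these data known. Named genes were the 12 highest by mean RPKM, the 10 largest rises and falls among called members with a mean of at least 5 CPM, Hspa1a, Hspa1b, the most abundant member of each class, and up to 3 called genes per direction of each list, with Hsf1 and Hsf2; others were named after their values were seen. Shared sequence was counted in 50-base words of annotated transcripts.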

Additional observations from a re-analysis of the deposited data

How the results depend on the processing

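Scaling by relative log expression and limma-voom kept all 34 calls of members, DESeq2 and the fit without a filter kept 33, and the filter at a mean of 5 CPM kept all 32 that it tested. Without a filter 22 members were higher and 16 lower, with limma-voom 20 and 16, and with DESeq2 19 and 16. With sex as a term 2064 genes were higher and 1615 lower, and 6 members were lower in place of 15. With GC and length offsets 1917 genes and 12 members were higher. With both together 775 genes were higher and 1283 lower, 2 members were higher and 5 lower, 7 of the 34 calls held, and the median log2 fold change of the members was -0.0038. Leaving out each library in turn gave 1935 to 3630 genes higher and 1681 to 3311 lower, 13 to 26 members higher and 6 to 17 lower, and a member median of 0.042 (without male B) to 0.26. Dnaja1 had log2 fold changes of -0.28 with the offsets and -0.29 with offsets and sex as a term, and Hspa1b ranged from -0.30 (without male C) and -0.13 (without male A) to 1.10 (without male B). For the female against the males, the pool description as a term gave 4 genes lower, no filter 1 higher and 1 lower, and DESeq2 1 higher and 4 lower. Leaving out a male gave 1 to 1935 genes higher and 4 to 1681 lower, and 0 to 13 members higher and 0 to 6 lower; the highest counts came without male A, where sex and pool description are the same contrast. Of the 12 members highest by RPKM, 9 were among the 12 highest by CPM. Where not stated, the cause was not tested. No paired analysis was possible because the labels name 4 different animals, and nothing in them ties a library of 1 pair to a library of the other. Hspa1a, Hspa1b, Hspb1, Hspb2 and Hspb7 had under 70 counts in each library, and differences in them were hard to detect at this depth.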

Other observations

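The 40 genes that were more than 2-fold lower in male B than in each other library are spread over unlike functions. The most abundant was Aplp2, a relative of the amyloid precursor gene, at 1171 and 1168 CPM in the P2 mouse pair and 379 and 1025 in the embryo pair (male B first). Fth1, the ferritin heavy chain gene, was at 875, 930, 256 and 1137 CPM in the same order of libraries. Pdia3, a disulfide isomerase of the ER that works with calnexin, was at 700, 774, 101 and 585 CPM. Hspa9 was at 312 CPM in both P2 mouse libraries and at 58.5 and 173 CPM in the embryo pair. These genes were named after their values were seen.

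Stub1, the gene of the ubiquitin ligase CHIP that acts on HSP70 clients, was at 26.6, 23.2, 7.28 and 36.7 CPM, and the chaperone gene Dnajb3 had 46, 29, 4 and 38 counts, in the same order. In both, male B was the lowest library, and neither passed the test between the pairs. The genes of the small GTPase Rab11a (559, 567, 107 and 286 CPM) and of Rab3a (268, 249, 95.6 and 478 CPM) are also among the 40.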
